A study of Cuscuta campestris with 9 samples.

Results

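The precursors of the transfer RNAs for phenylalanine (Phe), tryptophan (Trp) and cysteine (Cys) were examined in host-free haustoria of dodder, Cuscuta campestris, a parasitic plant. The table holds 496 pre-tRNA genes among 626 named loci. A gene was taken as a member when its name carried the category pre-tRNA and an amino acid code of Phe, Trp or Cys, which gave 36 genes: 15 for Phe, 6 for Trp and 15 for Cys. They held 123 of the 2315 listed pre-tRNA intervals, each interval being a full-length RNA with its own start and end. In all libraries together they had 693 counts: 459 for Phe, 40 for Trp and 194 for Cys. Every Phe member was labelled with the anticodon GAA, every Trp member with CCA and every Cys member with GCA. Genes are named here by scaffold and tRNA number of the assembly Ccam0.32, with coordinates counted from 1.

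All RNA came from the wild-type strain "Dotti". Shoot tips cut from plants grown on beets were kept under far-red light and pressure on agar for 4 days, and the regions with haustoria, the organs by which the parasite enters a host, were dissected without any host tissue. Each of 3 RNA samples was divided into RNA treated with RppH, RNA treated with Dcp and untreated RNA, so there were 9 libraries, 3 per treatment, and libraries with the same number share an RNA sample. RppH is a pyrophosphohydrolase and Dcp a decapping enzyme. Separate plants or tissue collections are not stated for these samples, so the p-values reflect library spread, which may be technical. The listed pre-tRNAs and snRNAs mark no tissue or cell type. The listed microRNA transcripts carry the category label interface-induced. All 9 libraries are from haustoria, with no other tissue beside them, so the tissue label could not be checked.

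A pre-tRNA is made by RNA polymerase III and starts with a 5′ triphosphate. RNase P cuts off the 5′ leader and leaves a monophosphate, the 3′ trailer is trimmed, and CCA is added to the 3′ end. The ligation used for these libraries needs a 5′ monophosphate. A triphosphate is opened by RppH, and a cap by both enzymes. In translation tRNA-Phe and tRNA-Cys each read a pair of codons, and tRNA-Trp reads the only tryptophan codon. The files give no bounds of the mature tRNAs, so leaders and trailers were not measured here.

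Library totals ran from 24974484 to 46034864, so that 1 count was worth 0.0217 to 0.04 TPM, the unit of the table, here a share of the library total and not divided by length. The 3 RppH libraries held 4314 to 9708 pre-tRNA counts, the Dcp libraries 827 to 1354 and the untreated libraries 581 to 904. Single members are therefore sparse: 14 of the 36 reached 10 counts over all libraries, and 22 did not.

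Phe precursors were the most abundant of the 3 groups in every RppH library and Trp precursors the least. In RNA samples 1 to 3, the 15 Phe genes summed to 5.24, 3.68 and 5.04 TPM after RppH, to 0.857, 0.49 and 0.0689 TPM after Dcp, and to 0.0968, 0.0652 and 0.151 TPM in untreated RNA. Means were 4.65 ± 0.847, 0.472 ± 0.395 and 0.104 ± 0.0436 TPM for RppH, Dcp and untreated RNA (SD, n = 3 each). All RppH libraries lay above all others, while the Dcp library of sample 3 lay within the untreated range.

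The 15 Cys genes summed to 2.15, 1.28 and 2.31 TPM after RppH, to 0.273, 0.318 and 0.0345 TPM after Dcp, and to 0, 0.109 and 0 TPM in untreated RNA. Their means were 1.91 ± 0.553, 0.209 ± 0.152 and 0.0362 ± 0.0627 TPM (SD, n = 3 each). Cys showed the same order as Phe, and its 5 untreated counts all came from RNA sample 2. The 6 Trp genes summed to 0.473, 0.36 and 0.48 TPM after RppH and to 0.0779, 0 and 0 TPM after Dcp. No Trp precursor was counted in untreated RNA, where 3 counts over the 3 libraries, the floor set here for a count of 0, would be 0.0264 TPM. Trp was thus seen almost only after RppH, with 38 of its 40 counts there. This was not particular to Trp: leucine precursors had 1031 of 1094 counts there and proline precursors 176 of 190. Lower shares were seen for Phe (404 of 459), Cys (168 of 194) and alanine precursors (5396 of 8439).

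**Figure D1:**
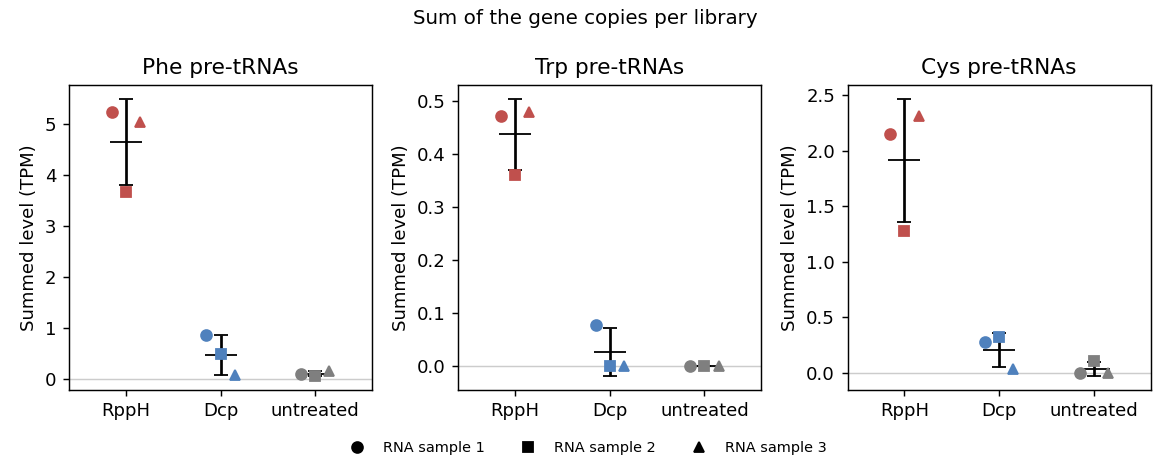
Summed TPM of the Phe (15 genes), Trp (6 genes) and Cys (15 genes) precursors by treatment, each point 1 library, with the mean as a horizontal line and its SD as a whisker (n = 3). For each group all 3 RppH libraries lie above all Dcp and untreated libraries, and the Dcp library of RNA sample 3 is the lowest of the Dcp libraries or level with the lowest.

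Pooled over the 3 libraries of a treatment, Phe precursors were 48.7-fold higher after RppH than in untreated RNA (95% exact counting interval 26.9 to 98.4). The ratio for Cys was 44.6 (18.7 to 139), and Trp was at least 16.8-fold higher against the floor of 3 counts. Over all other pre-tRNAs it was 12.8 with alanine precursors, which held 1364 of their 2073 untreated counts, and 27.4 (25.4 to 29.5) without them. The Cys ratio was 27.1 without RNA sample 1. Relative to all pre-tRNA counts of a library in place of the library total, RppH over untreated was 3.72 for Phe and 3.4 for Cys. That scale includes alanine precursors. The other pre-tRNAs without alanine were 70.9% of the pooled pre-tRNA counts after RppH and 33.9% in untreated RNA. Without scaffold37.tRNA2-PheGAA the Phe ratio per library total was 74.5. These intervals cover counting error only, and sums over chosen genes were not tested.

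Dcp gave smaller ratios to untreated RNA: 4.77 for Phe (2.42 to 10.2) and 5.0 for Cys (1.84 to 17), beside 2.7 for the other pre-tRNAs without alanine (2.47 to 2.95). RppH over Dcp came to 10.2 for Phe (7.48 to 14.3), 8.9 for Cys (5.64 to 14.8) and 21.1 for Trp (5.47 to 181), beside 10.1 for the others without alanine (9.63 to 10.7). Relative to all pre-tRNA counts, Dcp over untreated was 2.49 for Phe and 2.62 for Cys, and RppH over Dcp was 1.49 for Phe, 3.09 for Trp and 1.3 for Cys. Without scaffold37.tRNA2-PheGAA, Dcp over untreated was 10.2 for Phe. Without RNA sample 3 it was 7.88 for Phe, and RppH over Dcp was 5.77 for Cys and 13.9 for Trp. Without sample 2, RppH over Dcp was 15.3 for Cys and 13.0 for Trp, and without sample 1, Dcp over untreated was 2.91 for Cys. RNA sample 3 stood apart in the ratio of RppH to Dcp. Phe had RppH over Dcp ratios of 6.12, 7.52 and 73.0 in RNA samples 1 to 3, and Cys had 7.88, 4.02 and 67.0. The other pre-tRNAs without alanine also had their highest ratio in sample 3, with 6.93, 7.64 and 21.0. In the Dcp library of sample 3 there were 2 Phe counts, 1 Cys count and no Trp count among 827 pre-tRNA counts. Phe thus took 0.242% of that library's pre-tRNA counts, against 1.88% and 1.48% in the Dcp libraries of samples 1 and 2. The share of the other pre-tRNAs without alanine was also lowest there, at 33.5% against 53.8% and 51.6%.

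Among the 22 isotype labels in the table, Phe ranked 14 by mean RppH level, Cys 19 and Trp 21. Phe lay between His (5.01 ± 1.54 TPM) and initiator Met (3.99 ± 1.05 TPM), and Cys between Pro (2.01 ± 0.471 TPM) and Thr (1.62 ± 0.229 TPM; SD, n = 3), in each case with differences smaller than the larger SD of the pair. Trp, at 0.438 ± 0.0671 TPM, stood above only the 2 genes labelled Sup (0.235 ± 0.172 TPM). Phe and Cys have 15 genes each, but Phe had 30.6 counts per gene and Cys 12.9, and Trp, with 6.67, was the lowest of the 22 labels. Between isotypes or genes, fewer cells holding an RNA and less of it per cell cannot be told apart in bulk RNA.

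Within each group a few copies held most counts. The leading gene held 28.3% of the Phe counts, 35% of the Trp counts and 30.9% of the Cys counts, and the first 3 genes of each held 74.5%, 77.5% and 63.9%. At the other end 3 Phe genes and 3 Cys genes had 1 count in all. Over the 36 genes, 12 were counted in all 3 RppH libraries, 14 in 1 RNA sample only and 21 in RppH libraries only. Dcp counts were found for 14 genes and untreated counts for 5. Reads from near-identical copies may have been divided among them, so values of single copies are uncertain.

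The tests per gene asked which precursors gained counts with each enzyme. After RppH, 13 of the 14 members with at least 10 counts rose against untreated RNA: 6 of 6 Phe, 1 of 1 Trp and 6 of 7 Cys genes (edgeR quasi-likelihood test, Benjamini-Hochberg adjusted p under 0.05). Over all 340 tested loci 90.9% were called higher, so the members' share is near the background. With library totals as the scale, none was called lower by edgeR, DESeq2 or limma, and none was lower at an unadjusted p under 0.05 with edgeR. Under median-ratio and TMM scaling edgeR called 6 and 8 of the 340 loci lower. In 10 of the 14 every RppH library lay above every untreated library, which held for 72.9% of tested loci. Since members reached 10 counts mainly through their RppH libraries, these counts describe them and lend no support. The same limit holds for the p-values of single genes given below for RppH against untreated RNA or Dcp. When the RNA sample entered as a block 8 of 14 were called. Fewer members reached 10 counts when an RppH library, Dcp library 1 or 2, or a whole RNA sample was left out. Without the libraries of sample 1, 8 of 11 tested members were called, and without those of sample 3, 7 of 9. Without the RppH library of sample 3 alone it was 8 of 9. Scaling to the median ratio or by TMM, which moved the median log2 fold change of all tested loci by -1.49 and -1.51, left 2, scaffold129.tRNA2-PheGAA and scaffold5.tRNA10-PheGAA.

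After Dcp 1 of the 14 members, a Phe gene, rose against untreated RNA, where 8.24% of tested loci were called higher. Among the other pre-tRNAs 5 of 253 (1.98%) were called higher. That Phe gene was also the 1 member whose Dcp libraries all lay above the untreated ones (8.53% of tested loci). At an unadjusted p under 0.05 there were 2 of 14 members, beside 81 of the 340 tested loci and 46 of the 253 other pre-tRNAs. RppH over Dcp was called higher for 9 of 14 members, 5 Phe and 4 Cys genes, beside 63.8% of tested loci, which is also near the background. The libraries did not overlap for 10 of 14, beside 65.3% of tested loci. Here too members passed the filter mainly through RppH libraries, so these counts lend no support. Over all 36 members without the filter, libraries did not overlap for 11 genes between RppH and untreated RNA, 1 between Dcp and untreated RNA and 11 between RppH and Dcp, beside 43.9%, 4.63% and 39.6% of all 626 loci. The count of 9 of 14 varied with the libraries used, as did the number of members tested. It was 2 of 14 in the fit blocked by RNA sample. Without RNA sample 1, 2 or 3 it was 5 of 11, 4 of 11 and 1 of 9. Without the RppH library of sample 1 it was 5 of 11. Without the Dcp library of sample 2 or that of sample 3 it was 3 of 13 and 3 of 14.

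Among Phe genes, scaffold37.tRNA2-PheGAA had the most counts and lies at 395984 to 396074 on the plus strand of scaffold 37. It had 35, 35 and 53 counts after RppH, 1, 0 and 0 after Dcp, and 2, 0 and 4 in untreated RNA. RppH libraries stood far above both others, and Dcp gave no more counts than no enzyme. The pooled RppH level was 27.2-fold that of untreated RNA (12.1 to 75.5), with a log2 fold change of 4.51 ± 1.16 (SE) and an adjusted p of 0.000423. That call was lost under median-ratio scaling (log2 fold change 1.54, adjusted p = 0.213) and TMM (1.45, adjusted p = 0.231). Against Dcp the ratio was 137 (24.1 to 5450), with a log2 fold change of 6.60 ± 1.40 and an adjusted p of 0.000319. This was the 1 member whose RppH over Dcp call held under every scaling tried, and it held at an adjusted p of 0.0132 in the blocked fit and in every fit that left out a library or an RNA sample.

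Next came scaffold129.tRNA2-PheGAA, at 665006 to 665092 on the plus strand of scaffold 129. It had 46, 15 and 48 counts after RppH, 4, 0 and 0 after Dcp, and none in untreated RNA. It rose at least 48.2-fold after RppH against untreated RNA (adjusted p = 8.4e-06). RppH exceeded Dcp 30.3-fold (11.5 to 113; adjusted p = 0.0017), and this call was lost without RNA sample 3 (adjusted p = 0.0778). Its neighbour scaffold129.tRNA3-PheGAA, 12284 nt away on the same strand, had 21, 1 and 11 counts after RppH, 2, 1 and 0 after Dcp, and 2, 0 and 0 in untreated RNA. Its RppH level was 21.9-fold that of untreated RNA (5.6 to 188; adjusted p = 0.00447), but RppH library 2, with 1 count, lay below the untreated library of sample 1. Without the RppH library of sample 1 the adjusted p was 0.0927.

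A different balance was found for scaffold5.tRNA10-PheGAA, at 582869 to 582961 on the minus strand of scaffold 5. It had 20, 15 and 36 counts after RppH, 8, 19 and 1 after Dcp, and none in untreated RNA. In RNA sample 2 the Dcp library held more counts than the RppH library, although RppH was higher in TPM in all 3 samples. RppH exceeded Dcp 2.82-fold (1.8 to 4.54), and the log2 fold change of 1.54 ± 1.00 had an adjusted p of 0.154. With median-ratio and TMM scaling its sign turned, to -0.71 and -0.76. By contrast, limma on log2(TPM + 1) and log2(TPM + 0.1) called RppH higher than Dcp (adjusted p = 0.0115 and 0.0216). Against untreated RNA it rose at least 31.4-fold after RppH (adjusted p = 2.9e-05) and at least 11.1-fold after Dcp (adjusted p = 0.00492). This was the Dcp call named above, and the gene held 28 of the 44 Phe counts in Dcp libraries. The Dcp call was lost in the blocked fit (adjusted p = 0.0549), without RNA sample 1 (0.132) and without RNA sample 2 (0.242). It was also lost in both limma fits. Whether its response differs from that of the other Phe genes was not tested.

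The remaining tested Phe genes were smaller. On scaffold 10, scaffold10.tRNA13-PheGAA had 7, 17 and 9 counts after RppH, 2, 0 and 1 after Dcp, and none in untreated RNA, a rise of at least 14.6-fold after RppH (adjusted p = 0.000372). On scaffold 31, scaffold31.tRNA9-PheGAA had 6, 2 and 9 counts after RppH and none elsewhere, a rise of at least 7.52-fold (adjusted p = 0.0052; 0.0724 in the blocked fit). Both also exceeded Dcp, with adjusted p-values of 0.0227 and 0.0142, as did scaffold129.tRNA3-PheGAA with 0.0227. None of these 3 calls against Dcp held in the blocked fit (adjusted p = 0.156, 0.143 and 0.2). With RppH counts only, scaffold31.tRNA9-PheGAA passed the filter through RppH alone, so its p-values lend no support. Against Dcp, scaffold129.tRNA3-PheGAA was also not called without RppH library 1, Dcp library 2 or 3 or any RNA sample (adjusted p = 0.0573 to 0.233). The same held for scaffold10.tRNA13-PheGAA without RppH library 1 or 2, Dcp library 2 or 3 or RNA sample 2 or 3 (0.0536 to 0.215), and for scaffold31.tRNA9-PheGAA without Dcp library 2 or 3 or RNA sample 1 (0.051 to 0.0559). Of the 9 Phe genes under 10 counts, chosen here after their values were seen, scaffold7.tRNA4-PheGAA had 1, 3 and 0 counts after RppH against 5, 0 and 0 after Dcp. The only member of any group without an RppH count was scaffold63.tRNA9-PheGAA, with 3 counts in the untreated library of sample 2.

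**Figure D2:**
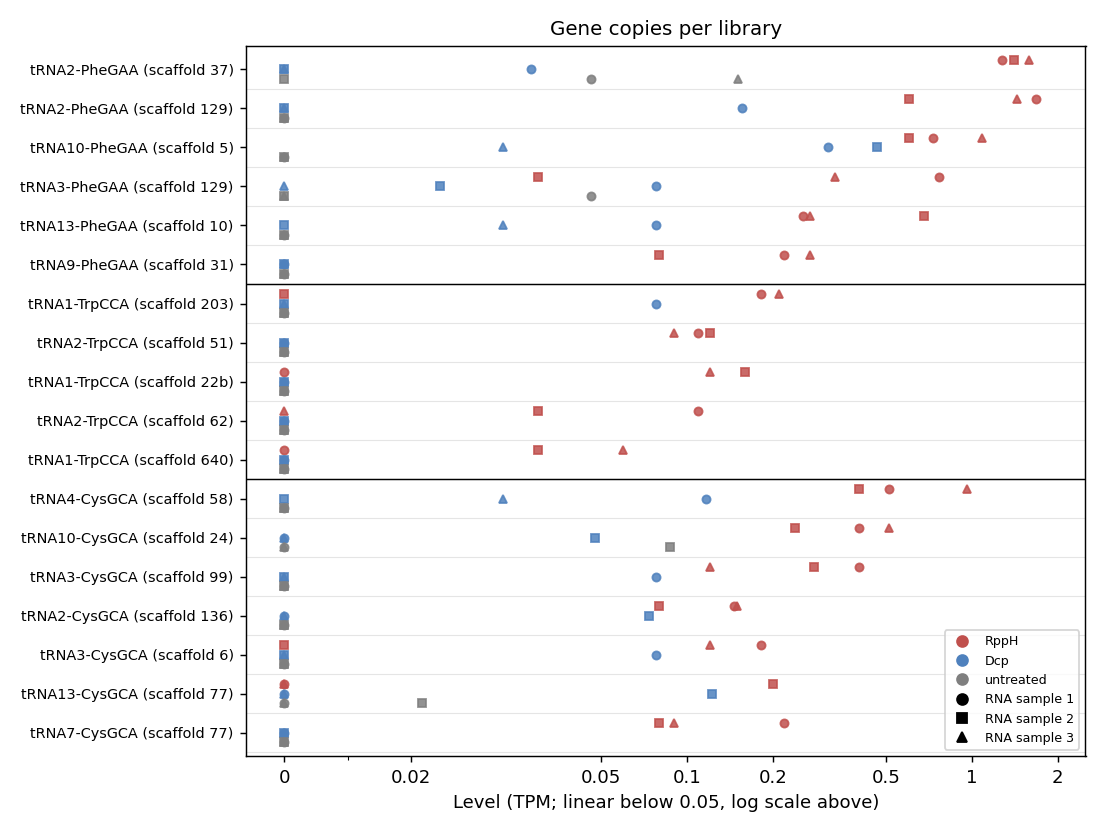
TPM of the named Phe, Trp and Cys genes in each of the 9 libraries, 1 point per library, coloured by treatment, on an axis that is linear below 0.05 TPM and logarithmic above. RppH points lie above the rest for most genes, scaffold5.tRNA10-PheGAA has Dcp points beside its RppH points, and many untreated points lie at 0.

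Of the 6 Trp genes 1 was tested. This was scaffold203.tRNA1-TrpCCA, at 573586 to 573678 on the plus strand of scaffold 203, with 5, 0 and 7 counts after RppH, 2, 0 and 0 after Dcp, and none in untreated RNA. It rose at least 5.30-fold after RppH against untreated RNA (adjusted p = 0.0116), a call lost in the blocked fit (adjusted p = 0.145). RppH over Dcp was 6.68 (1.49 to 61.4; adjusted p = 0.192). The most even was scaffold51.tRNA2-TrpCCA, with 3 counts in each RppH library and none elsewhere, at least 3.98-fold above untreated RNA but too few to test. RppH counts of samples 1 to 3 were 0, 4 and 4 for scaffold22b.tRNA1-TrpCCA, 3, 1 and 0 for scaffold62.tRNA2-TrpCCA, and 0, 1 and 2 for scaffold640.tRNA1-TrpCCA. Outside RppH libraries no count was found for these genes.

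The leading Cys gene was scaffold58.tRNA4-CysGCA, at 1410910 to 1410999 on the minus strand of scaffold 58. It had 14, 10 and 32 counts after RppH, 3, 0 and 1 after Dcp, and none in untreated RNA. It rose at least 24.8-fold after RppH against untreated RNA (adjusted p = 6.15e-05). RppH exceeded Dcp 15.6-fold (5.76 to 59.2; adjusted p = 0.0111), but the adjusted p was 0.0846 in the blocked fit. That call was also lost without RNA sample 2 (adjusted p = 0.0662), without RNA sample 3 (0.124), without the RppH library of sample 3 (0.0515) and without the Dcp library of sample 2 (0.0567).

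The second Cys gene, scaffold24.tRNA10-CysGCA, lies at 1432151 to 1432245 on the minus strand of scaffold 24. It had 11, 6 and 17 counts after RppH, 0, 2 and 0 after Dcp, and 0, 4 and 0 in untreated RNA. It was 11.3-fold higher after RppH than in untreated RNA (4.02 to 43.7; adjusted p = 0.0105) and 18.9-fold higher than after Dcp (4.85 to 163; adjusted p = 0.0121; 0.0613 in the blocked fit). Sample 2 alone gave counts outside RppH. Its call against untreated RNA was lost when RNA sample 1 (adjusted p = 0.0811) or 3 (0.096) was left out, and that against Dcp without Dcp library 3 or RNA sample 1 or 3 (0.0565 to 0.132). The third, scaffold99.tRNA3-CysGCA, had 11, 7 and 4 counts after RppH, 2, 0 and 0 after Dcp and none in untreated RNA, a rise of at least 9.73-fold (adjusted p = 0.00182). Against Dcp it was 12.2-fold higher (3.01 to 107; adjusted p = 0.0407; 0.17 with the block), and this was not called without RppH library 1 or 2, Dcp library 2 or 3 or RNA sample 2 or 3 (0.0746 to 0.175).

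Smaller Cys genes differed in which RNA samples they appeared. After RppH, scaffold136.tRNA2-CysGCA had 4, 2 and 5 counts, against 0, 3 and 0 after Dcp and none in untreated RNA, and scaffold77.tRNA7-CysGCA had 6, 2 and 3 counts and none elsewhere. Each rose at least 4.86-fold against untreated RNA (adjusted p = 0.0123 for both). With RppH counts only, scaffold77.tRNA7-CysGCA passed the filter through RppH alone, so its p-values lend no support. In the blocked fit the adjusted p was 0.107 for scaffold136.tRNA2-CysGCA and 0.129 for scaffold77.tRNA7-CysGCA, and without RNA sample 1 it was 0.0633 for scaffold136.tRNA2-CysGCA. Against Dcp, scaffold77.tRNA7-CysGCA was at least 4.08-fold higher (adjusted p = 0.0253; 0.203 with the block; 0.0521 to 0.0788 without any 1 of the Dcp libraries), while scaffold136.tRNA2-CysGCA had an adjusted p of 0.236. The call for scaffold6.tRNA3-CysGCA, with 5, 0 and 4 RppH counts, 2, 0 and 0 Dcp counts and none in untreated RNA, had an adjusted p of 0.0183 (0.182 with the block; 0.0512 and 0.0526 without untreated library 1 or 2). All counts of scaffold77.tRNA13-CysGCA came from RNA sample 2: 5 after RppH, 5 after Dcp and 1 in untreated RNA. It was the tested member that was not called after RppH (log2 fold change 2.49 ± 1.80, adjusted p = 0.177). Its scaffold neighbour tRNA8, with 2 counts in the RppH library of sample 1, lies 1726 nt away, and tRNA7 lies 583 nt beyond that, all on the minus strand. These 3 Cys genes are the closest members in the table.

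Phe and Cys precursors were of like length, and Trp precursors were shorter. Mean length in RppH libraries, weighted by counts, was 87.0 ± 0.658 nt for Phe, 79.8 ± 1.78 nt for Trp and 87.3 ± 0.762 nt for Cys, beside 88.2 ± 0.29 nt for the other pre-tRNAs (SD, n = 3). Lengths ran from 74 to 97 nt for Phe, 72 to 93 nt for Trp and 74 to 96 nt for Cys. Members showed a gap in these lengths, with no count at 79 or 80 nt, so shares under 80 nt were taken, a limit chosen after the lengths were seen. In RppH libraries 17 of 404 Phe counts (4.21%), 17 of 38 Trp counts (44.7%) and 10 of 168 Cys counts (5.95%) were under 80 nt, beside 4.25% for the other pre-tRNAs.

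The Trp share ranked 1 among the 22 isotype labels, with Lys next at 22.1%. In RppH libraries 1 to 3 the short Trp forms were 3 of 13, 4 of 9 and 10 of 16 counts, so they were present in every library at unlike shares. They belonged to few genes. Of scaffold203.tRNA1-TrpCCA, 10 of 14 counts were short, of which 9 ran from 573586 to 573659 (74 nt), while 3 counts from the same start ended at 573670 (85 nt). All 8 counts of scaffold22b.tRNA1-TrpCCA were short, and 7 ran from 121654 to 121726 (73 nt). By contrast, scaffold51.tRNA2-TrpCCA gave 6 counts of 85 nt and 3 of 87 nt, and scaffold62 and scaffold640 gave none under 80 nt. The short share of Trp thus rests mainly on 2 genes, and both short Dcp counts of Trp were the 74 nt form of scaffold203.tRNA1-TrpCCA.

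Of the 11 untreated Phe counts 7 were short. In RNA samples 1 and 2 all 7 untreated Phe counts were 76 to 78 nt long, while in sample 3 all 4 were 89 nt. The 76 nt counts were those of scaffold63.tRNA9-PheGAA, the 78 nt counts came from scaffold129.tRNA3-PheGAA, and the 77 nt and 89 nt counts from scaffold37.tRNA2-PheGAA. The gene on scaffold 37 had no RppH form of 77 nt. Over libraries the mean length of Phe was 87.0 ± 0.658 nt after RppH, against 80.8 ± 7.11 nt in untreated RNA (SD, n = 3), a value that rests on 11 counts. Under 80 nt were also 6 of 44 Phe counts and 5 of 21 Cys counts in Dcp libraries. All 10 short Cys counts of RppH libraries came from RNA sample 3.

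**Figure D3:**
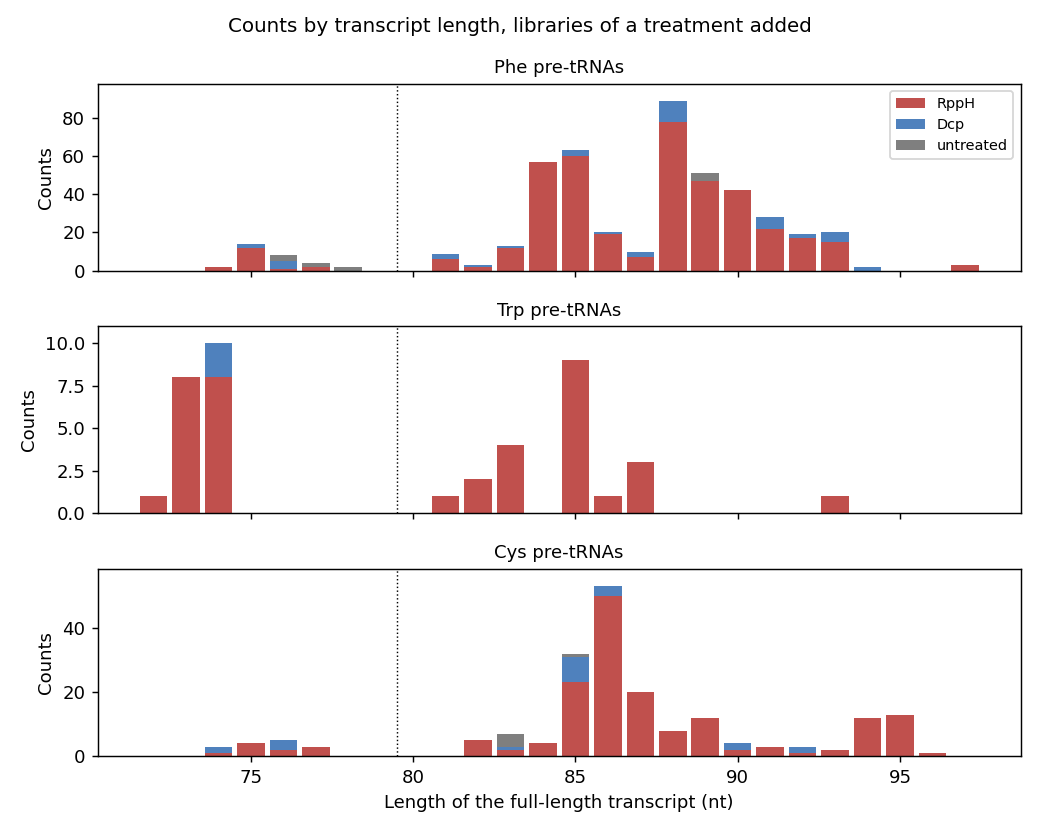
Counts by precursor length in nt for Phe, Trp and Cys, coloured by treatment, with a dotted line below 80 nt, the limit between short and long forms, and the libraries of a treatment added. Phe and Cys counts lie mostly above the line, and 17 of the 38 Trp counts in RppH libraries lie below it.

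The 5′ ends were more uniform than the 3′ ends. Of 24 members with several intervals, 12 had a single 5′ end, 9 had 2 and 3 had more, whereas 1, scaffold22b.tRNA1-TrpCCA, had a single 3′ end. In 20 of the 24 there were fewer 5′ than 3′ ends. The share of RppH counts at a gene's most used 5′ end was 68.8 ± 1.80% for Phe, 91.7 ± 2.51% for Trp and 95 ± 6.02% for Cys, beside 92.8 ± 0.265% for the other pre-tRNAs (SD, n = 3). Phe lay below the others in each RppH library. At the most used 3′ end the shares were 53.1 ± 5.72% for Phe, 75.1 ± 13.7% for Trp and 42.4 ± 10.5% for Cys, beside 44.9 ± 0.702% for the others. The most used end was itself chosen from these counts, and genes with few counts come near 100% by construction, so the shares are a description.

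The low Phe share at the 5′ end came from genes with a pair of starts 1 nt apart. Of the 8 members with at least 20 counts, 3 had such a pair, and all 3 were Phe genes. In scaffold37.tRNA2-PheGAA 59 counts began at 395984 and 71 at 395985. Its main forms were 395985 to 396072 (88 nt, 54 counts) and 395984 to 396073 (90 nt, 34 counts), while 395984 to 396072 had 12 counts and 395985 to 396073 had 14. The upstream start thus went mostly with a downstream end in this gene. In scaffold129.tRNA2-PheGAA 55 counts began at 665006 and 58 at 665007, and here both starts ended mainly at 665090, with 31 and 36 counts. In scaffold129.tRNA3-PheGAA 12 counts began at 677377 and 26 at 677378.

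Other abundant genes had 1 start and many ends. All 99 counts of scaffold5.tRNA10-PheGAA began at 582961, on the minus strand, and they had 11 different 3′ ends over 18 nt, the most used being 582874 with 30 counts (88 nt). Its 28 Dcp counts had that same start. All 60 counts of scaffold58.tRNA4-CysGCA began at 1410999, with 7 3′ ends over 7 nt, of which 1410914 had 26 counts (86 nt). All 40 counts of scaffold24.tRNA10-CysGCA began at 1432245, with 9 3′ ends over 19 nt, and the longest form, of 95 nt, had the most counts, 10. Its 4 untreated counts were a form of 83 nt that no RppH or Dcp library held. In scaffold99.tRNA3-CysGCA 18 counts began at 1126944, 2 at 1126946 and 4 at 1126947, and these last 4 were all its counts in RppH library 3. In scaffold10.tRNA13-PheGAA 34 of 36 counts began at 3109876, 1 at 3109874 and 1 at 3109882. Of its counts 28 ended at 3109792.

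**Figure D4:**
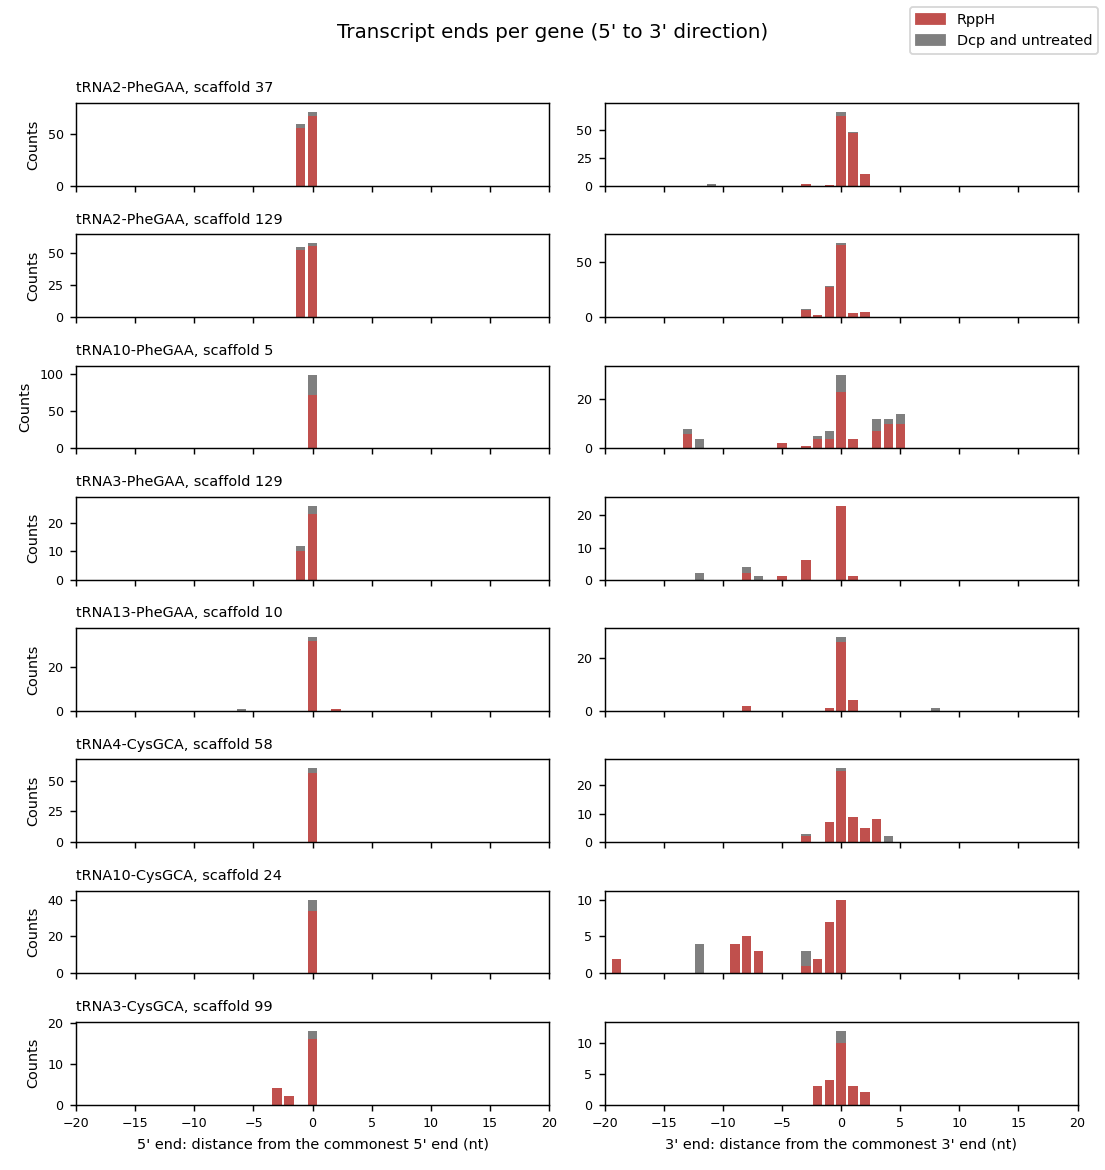
Counts (RppH in red, Dcp and untreated RNA together in grey) by distance in nt from the most used 5′ end (left) and 3′ end (right), for the 8 genes with at least 20 counts. Phe genes on scaffolds 37 and 129 have a pair of neighbouring 5′ ends, the genes on scaffolds 5, 58 and 24 have 1 start, and the 3′ ends of these genes spread over 5 to 19 nt. The genes on scaffolds 10 and 99 have 3 starts each.

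Of the 123 intervals, 73 were seen in 1 library and 50 in several, and 16 were in all 3 RppH libraries, 11 of Phe, 5 of Cys and none of Trp. Most single intervals are thus known from a few counts.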

How the data were processed

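The deposited table lists full-length RNAs per genomic interval with whole-number counts per library, not normalized, and TPM, which the authors computed, per the file headers. The TPM equalled count divided by 1 constant per library (largest relative deviation 2.7e-15), so library totals were recovered from it. Per the submitters' processing notes, cutadapt, Bowtie2, SAMtools and bedtools were used. For reads shared by near-identical copies, the rule of assignment is not given in the sources used. Libraries hold stranded RNAs of about 10 to 400 nt, per the labels' protocols.

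Counts were summed per gene name, snRNA copies per type, and loci reaching 10 counts, 340 of 626, were tested with edgeR 4.0.16 (quasi-likelihood, R 4.3.3), two-sided, with the library totals as offsets. A single spread was estimated over all 9 libraries, and p-values were adjusted over all tested loci by Benjamini-Hochberg at 0.05. Each SE is the absolute log2 fold change divided by the square root of F. Ratios of pooled counts per library total carry 95% exact intervals for counting error only, as no molecular identifiers are mentioned. A fold against 0 counts is given as at least the fold over a set floor of 3 counts over the group, which is not a hard limit. Lengths and ends come from the interval bounds and strand, weighted by counts.

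Named genes were the 5 with the most counts per group and any tied with the last of these. Then came called members with the largest change alike in all 3 RNA samples. Members, lists and tests were chosen with earlier results of these data known. The labels tie same-numbered libraries to 1 RNA sample, which pairs them. Their deviations from the group means correlated at -0.296 to 0.205 in 9 pairs (median 0.0792), beside -0.347 to 0.283 in 18 other pairs. Alternatives were the RNA sample as a block, median-of-ratios scaling on positive counts, TMM, other filters, DESeq2 1.42.0, limma 3.58.1 on log2(TPM + 1) and log2(TPM + 0.1), single intervals and leaving out libraries. Counting snRNA copies separately was added after seeing the data.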

Additional observations from a re-analysis of the deposited data

How the results depend on the processing

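With the RNA sample as a replicate block, the loci called higher numbered 187 for RppH against untreated RNA (309 without it), 18 for Dcp against untreated RNA (28) and 57 for RppH against Dcp (217), and the Phe, Trp and Cys genes numbered 8, 0 and 2 (13, 1 and 9 without it). Under median-of-ratios and TMM scaling, RppH against untreated RNA gave 58 loci higher and 6 and 8 lower, with 2 members. These scalings moved the median log2 fold change of all loci by -1.49 and -1.51 there, by 0.75 and 0.8 for Dcp against untreated RNA, and by -2.14 and -2.22 for RppH against Dcp. RppH against Dcp gave 5 and 4 loci higher and 3 lower under each, with 1 member. With at least 30 counts RppH against untreated RNA gave 161 loci and 7 members, and RppH against Dcp 129 loci, where fewer were tested. DESeq2 called 8 members for RppH against untreated RNA, and 112 loci and 4 members for RppH against Dcp. For RppH against Dcp, limma called 11 members with a pseudocount of 1 or 0.1. These were the 9 of the main fit, scaffold5.tRNA10-PheGAA and scaffold136.tRNA2-CysGCA. For Dcp against untreated RNA, limma gave 3 loci with a pseudocount of 1 and 14 with 0.1, and no member with either. Also for Dcp against untreated RNA, single intervals gave 0 members, and snRNA copies kept separate gave 48 loci.

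Leaving out libraries or RNA samples gave 192 to 305 loci and 7 to 13 members for RppH against untreated RNA, 4 to 41 and 0 to 1 for Dcp against untreated RNA, and 30 to 227 and 1 to 9 for RppH against Dcp. The number of members tested fell to 9 where RNA sample 3 or its RppH library was left out. Ratios of sums ranged from 3.26 to 7.88 for Phe and 2.91 to 5.26 for Cys (Dcp over untreated), 27.1 to 30.3 for Cys (RppH over untreated), and 13.0 to 13.9 for Trp and 5.77 to 15.3 for Cys (RppH over Dcp). Without RNA sample 2, Cys has no untreated count and so no RppH over untreated ratio.

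With every library rescaled to the same pre-tRNA total, the mean over the 9 libraries, Phe sums were 1.94, 1.16 and 0.524 TPM for RppH, Dcp and untreated RNA, and Cys sums 0.781, 0.54 and 0.266 TPM. The Trp sum was 0.183 TPM after RppH. The pre-tRNA total used here includes alanine precursors. On that scale RppH over untreated was 3.72 for Phe and 3.4 for Cys, Dcp over untreated 2.49 and 2.62, and RppH over Dcp 1.49 for Phe, 3.09 for Trp and 1.3 for Cys. Without the most abundant gene of each group, RppH sums were 3.23 TPM for Phe, 0.307 for Trp and 1.29 for Cys. The untreated Phe sum was then 0.0379 TPM, and the Phe ratios 74.5 for RppH and 10.2 for Dcp over untreated. Without it the mean Phe length was 86.1 nt and the share at the most used 5′ end 77.4%. With each interval counted once, 36.2% of Phe lay at the most used 3′ end, 9.62% of Phe was under 80 nt, and 83.0% of Trp lay at the most used 5′ end.

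Signs turned under median-of-ratios and TMM scaling for 4 log2 fold changes of RppH against Dcp that were not called: -0.71 and -0.76 for scaffold5.tRNA10-PheGAA, -0.14 and -0.2 for scaffold136.tRNA2-CysGCA, -0.12 and -0.21 for scaffold6.tRNA3-CysGCA, and -1.47 and -1.45 for scaffold77.tRNA13-CysGCA. For RppH against untreated RNA the last of these gave -0.05 and -0.09. Leaving out libraries turned signs of 2 genes that were not called, with a range of -3.21 to 2.55 for scaffold24.tRNA10-CysGCA (Dcp against untreated RNA, extremes without Dcp or untreated library 2) and of -0.04 to 1.07 for scaffold77.tRNA13-CysGCA (RppH against Dcp). Other causes of these changes were not tested. Members had 1 to 130 counts in all, which limits every statement on a single copy.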
